A study of Homo sapiens with 16 samples.

Results

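The lysosome breaks down proteins, glycans and lipids in an acid compartment. Cathepsins and other proteases cut proteins, glycosidases and sulfatases strip sugars and sulfate groups one after the other, lipid hydrolases work with small activator proteins, and a proton pump keeps the lumen acid. TFEB is a transcription factor that switches on many lysosomal genes by binding a short promoter element, and loss of a single gene of the set can cause a storage disease, such as Tay-Sachs disease (HEXA, an enzyme) or Niemann-Pick disease (the enzyme SMPD1 and the sterol transport proteins NPC1 and NPC2).

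The set described here holds 39 such genes, chosen by symbol, of 26485 genes in the count table. It has 9 proteases (CTSB, CTSC, CTSD, CTSF, CTSH, CTSK, CTSL, CTSZ and TPP1) and 15 glycosidases, sulfatases and related glycan enzymes (AGA, ARSA, ARSB, FUCA1, GAA, GALNS, GLB1, GUSB, HEXA, IDUA, MAN2B1, MANBA, NAGLU, NEU1 and SGSH). A further 8 are lipid enzymes, activators and sterol carriers (ASAH1, GM2A, LIPA, NPC1, NPC2, PPT1, PSAP and SMPD1), and 7 are membrane proteins, pump subunits and the regulator TFEB (ATP6V0D1, ATP6V1H, CD63, LAMP1, MCOLN1, SCARB2 and TFEB).

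RNA was sequenced from 2 cancer cell lines, PC3 from prostate and HeyA8 from ovary, both labelled wild type. Per the labels, cells were left mock treated with no siRNA or were transfected with 1 nM of siNT1 (a non-targeting control), siGGGGGC or siCAG, and RNA was taken after 24 h or 48 h. The libraries taken here as siGGGGGC are those whose treatment label names it, while their titles and the headings of the count table call the siRNA siMxy. The study's methods describe 10 nM for RNA sequencing, so the dose rests on the labels alone. siGGGGGC is an siRNA whose guide carries the 6 bases GGGGGC as its seed, the stretch at guide positions 2 to 7 that pairs with GCCCCC in target mRNAs, and the study asks which seeds are toxic to cancer cells. The sequence of siCAG was not used here, since it is not given in the sources used here, and neither siRNA names 1 gene whose knockdown would check the labels.

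Each line gave 8 libraries, 1 for each treatment and time, so the 24 h and 48 h libraries served as the 2 replicates of a treatment. The p-values therefore measure only the spread between these samples. The study's methods describe wells lysed at 24 h and other wells kept until 48 h. Nothing in the labels says that the 2 times came from separate experiments. Total counts were 27937092 to 29971612 in PC3 and 29128446 to 31790209 in HeyA8. HOXB13 and TMPRSS2, markers of prostate epithelium, were present in every PC3 library (2280 to 13810 and 461 to 1055 normalized counts), while KLK3 and KLK2 were at 0. PAX8, a marker of ovarian and other Müllerian epithelium, was at 1985 to 7483 in the HeyA8 libraries and MSLN at 323 to 1544, while MUC16 reached at most 5.16 and FOLR1 at most 1.19. Macrophages are rich in lysosomes, and the 8 macrophage and leukocyte markers summed to 17 to 70.4 normalized counts in PC3 and 6.95 to 27.8 in HeyA8, with CD14 the most abundant and TYROBP at 0 in all 16 libraries.

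The 2 HeyA8 siCAG libraries stood apart from the rest. Over the 500 genes that differed most between a pair of libraries, the root mean square log2 difference between the 24 h and 48 h siCAG libraries was 3.53, and it was 3.13 to 4.76 between either of them and the other HeyA8 libraries, against 1.47 to 2.05 between the 24 h and 48 h libraries of any other treatment in either line. In the models of each line, in which the common biological coefficient of variation was 18.0% in PC3 and 28.2% in HeyA8, 15136 genes were tested in PC3 and 13872 in HeyA8. Of the 39 lysosomal genes, 38 were tested in each line. HEXA had too few counts in PC3 and CTSF in HeyA8.

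Before the levels, the sequences show which of these genes carry the features the siRNAs and TFEB could meet. ARSB, a sulfatase that removes sulfate from dermatan and chondroitin sulfate, is the one member of the set with a run of 4 or more CTG triplets, the complement of CAG, in its coding sequence or 3′ UTR. The run has 5 triplets, in frame as codons 26 to 30 in exon 1 of 8, and lies on the minus strand of chromosome 5 at 78985159 to 78985173 (hg38). CTSA (a serine carboxypeptidase), NAAA (an acid amidase) and TPCN1 (an endolysosomal cation channel), lysosomal genes outside the set that carry longer or equal runs in their coding sequences on chromosomes 20, 4 and 12, are shown for comparison, with the CTG run in capitals.
ARSB: cctcccgCTGCTGCTGCTGCTGttgttgg
CTSA: ttcCTGCTGCTGCTGCTGCTGCTGCTGcta
NAAA: ccgtccCTGCTGCTGCTGCTGCTGgccggg
TPCN1: cacggccCTGCTGCTGCTGCTGctctccc
A run of 4 or more was present in 2.78% of the 12686 genes tested in PC3 that could be matched to a transcript and in 2.63% of 11797 in HeyA8. The longest run was 3 triplets in HEXA, NEU1, LAMP1, MCOLN1, ARSA and FUCA1 (coding sequence) and in SMPD1 (3′ UTR).

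The seed match GCCCCC occurs in the annotated 3′ UTR of 13 of the 38 genes tested in each line (34.2%), against 32.4% of matched genes in PC3 and 32.1% in HeyA8. The sites of genes that come up below with siGGGGGC are shown with the match in capitals, for CTSL on chromosome 9 (87731183 to 87731188, plus strand), TPP1 on chromosome 11 (6613423 to 6613428 and 6612949 to 6612954, minus strand), IDUA on chromosome 4 (1004535 to 1004540, plus strand) and CTSH on chromosome 15 (78922815 to 78922820, minus strand), all in the last exon.
CTSL: ttcagtctaccaGCCCCCgctgtgtcggat
TPP1 first site: ctttcccctccaGCCCCCaatcatagctca
TPP1 second site: cccttgcactgcGCCCCCtgtgcctacctc
IDUA: cttggtaccaacGCCCCCtttaaagcggct
CTSH: ccacatttccaaGCCCCCatttgcagccct
With the transcript of longest coding sequence in place of the one with the longest 3′ UTR, the share was 23.7% in PC3 and 21.1% in HeyA8 (28.3% and 28% of all matched genes). The sites of CTSH, CTSZ, NPC2, HEXA and ATP6V0D1 were not part of that transcript. Those of CTSZ, NPC2 and HEXA also lie outside the bounds of the gene in the count table. LIPA and TFEB, the genes called higher with siGGGGGC below, hold no GCCCCC in the 3′ UTR.

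RefSeq promoter sequence (GRCh38.p14, 250 bases before to 50 after the start) was matched for 29 of the 39 genes. CACGTG, the core of the TFEB element, was found in 9 of the 29 promoters (31.0%), against 7.43% of 27305 promoters and 9.75% of those of tested genes. The longer TCACGTGA, which contains it, was found in 5 of 29 (17.2%), against 1.04% and 1.74%. Both motifs read the same on either strand. 1 site of each promoter is shown, for GAA (chr17:80101493-80101522, plus), LAMP1 (chr13:113297199-113297228, plus), MCOLN1 (chr19:7522571-7522600, plus), GALNS (chr16:88857104-88857133, minus) and ATP6V0D1 (chr16:67481199-67481228, minus), with the motif in capitals.
GAA: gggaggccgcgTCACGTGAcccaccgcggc
LAMP1: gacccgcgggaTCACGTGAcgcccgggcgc
MCOLN1: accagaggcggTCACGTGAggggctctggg
GALNS: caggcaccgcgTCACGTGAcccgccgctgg
ATP6V0D1: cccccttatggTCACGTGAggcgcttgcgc
LAMP1 holds 6 copies of CACGTG in the window. ARSB, SMPD1 and FUCA1 hold none, NEU1 and CTSD hold 1 each, and of CTSB, PSAP and ARSA no promoter was matched. A match is a description of the letters only.

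Without an siRNA, more of the lysosomal genes were called higher in PC3 than in HeyA8. In mock-treated cells, 16 of the 39 genes were higher in PC3 (41.0%, against 25.6% of the 15887 genes tested over both lines) and 8 were higher in HeyA8 (20.5%, close to the 19.9% of all genes lower in PC3), by edgeR's quasi-likelihood test with Benjamini-Hochberg adjustment. Of the 37 genes that passed the filter on low counts in each line, 15 were higher in PC3 (40.5%, against 21.4% of the 13192 such genes) and 7 in HeyA8 (18.9%, against 20.5%). Levels between genes were compared as normalized counts per kilobase of transcript. CD63, a tetraspanin of the lysosomal membrane, was the highest in both lines (16501 and 15596 in PC3 at 24 h and 48 h, 9151 and 10047 in HeyA8). PSAP, the precursor of the saposin activators, was at 7343 and 7482 in PC3 and at 5578 and 5227 in HeyA8. CTSD, the main aspartic protease, was at 3624 and 3705 in PC3 and at 2290 and 2314 in HeyA8. CD63 passed the test (log2 difference 0.70, SE 0.23, adjusted p = 0.0264), whereas CTSD (0.58, SE 0.23, adjusted p = 0.0607) and PSAP (0.35, SE 0.21, adjusted p = 0.191) did not.

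HEXA, the alpha subunit of beta-hexosaminidase, was all but absent from PC3, with 1 count in 1 of the 8 libraries. HeyA8 mock cells had 1545 and 1405 counts of it, and scaled for depth the ratio was 3560 (95% interval 638 to 140665, exact, counting error only). CTSF, a cysteine cathepsin, was the reverse, with 398 and 403 counts in PC3 mock cells and 0 in all 8 HeyA8 libraries, a level at least 221-fold higher in PC3 when 3 counts over the 2 mock libraries are taken as the floor. Each of these genes entered the test through 1 line only. Counting is not stated to use strand, and reads in the short stretch at its start where HEXA overlaps the antisense gene HEXA-AS1 cannot be told apart.

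The other large differences fell into opposite groups. Higher in PC3 were CTSH, a cathepsin with aminopeptidase activity (log2 difference 6.03, SE 0.75, adjusted p = 9.15e-05), and FUCA1, which removes fucose (5.03, SE 0.35, adjusted p = 2.14e-06), both near the bottom of the set in HeyA8 at 3.02 and 6.55 and at 11.1 and 10.6 per kilobase. GAA, which degrades glycogen (2.20, SE 0.26), and GM2A, the activator that presents GM2 ganglioside to hexosaminidase (1.76, SE 0.33), followed. Higher in HeyA8 were ATP6V1H, a subunit of the proton pump's cytosolic domain (log2 difference -2.79, SE 0.20, adjusted p = 2.48e-06), CTSB (-2.09, SE 0.29), CTSL (-1.61, SE 0.32) and the heparan sulfate enzyme NAGLU (-1.57, SE 0.25). CTSB, a cysteine cathepsin, ranked second of 39 in HeyA8 (5750 and 5660 per kilobase) and 11th in PC3 (1544 and 1247). LAMP1, a major glycoprotein of the lysosomal membrane, was at 1625 and 1625 in PC3 and at 3111 and 3077 in HeyA8 (-0.99, SE 0.26, adjusted p = 0.00968), and the cholesterol exporter NPC1 was at 1488 and 1373 against 678 and 719 (1.18, SE 0.21, adjusted p = 0.00112). TFEB itself was low in both lines, at 20.0 and 35.7 in PC3 and 11.6 and 15.3 in HeyA8, and did not differ beyond its spread (0.69, SE 0.46, adjusted p = 0.245).

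**Figure D1:**
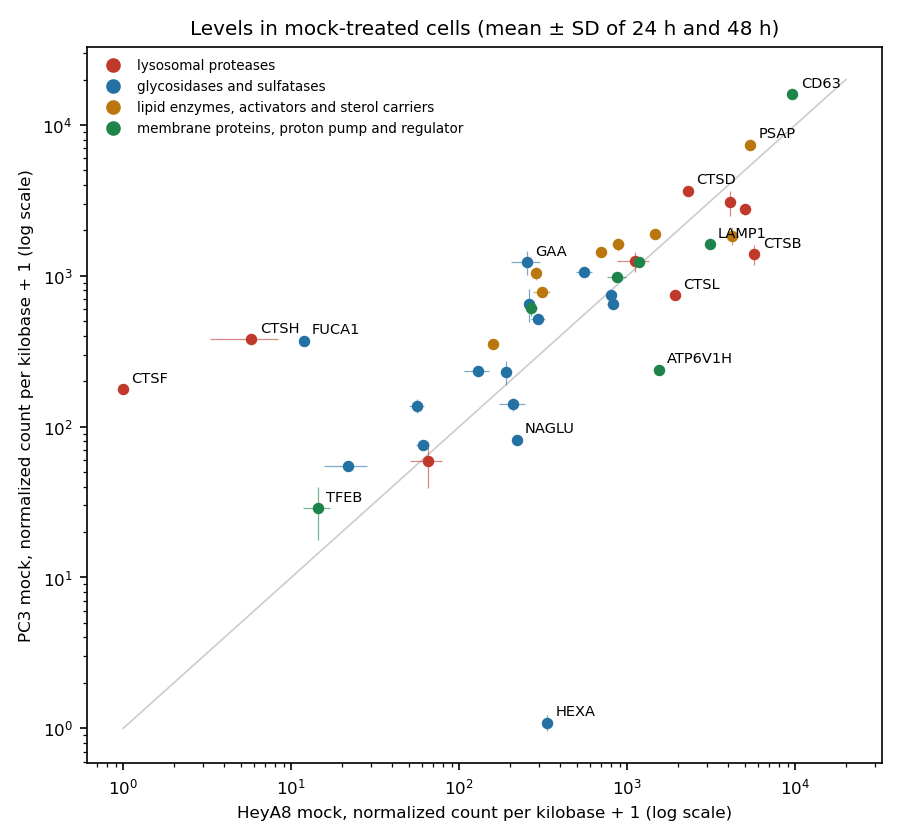
Normalized count per kilobase plus 1 in mock-treated HeyA8 (x axis) and PC3 (y axis), both log scales, with points at the mean and bars at the SD of the 24 h and 48 h libraries; colours give the 4 classes and the grey line marks equal levels. HEXA lies at the bottom and CTSF at the left edge, CTSH and FUCA1 far above the line, and CTSB and ATP6V1H below it.

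The control siRNA and the time point were compared next, and how many genes were called in HeyA8 depended on the libraries fitted. Between siNT1 and mock, none of the 38 lysosomal genes passed the test in PC3 or in HeyA8. In PC3 the background was 0.0264% of genes lower and 0.205% higher, with 1 lysosomal gene at an unadjusted p under 0.05. In HeyA8 it was 0% lower and 0% higher. There 88 and 89 of all genes, and no lysosomal gene, had an unadjusted p under 0.05. DESeq2 called no lysosomal gene in either line. Of all genes it called 0.614% lower and 1.14% higher in PC3, and 0.00721% and 0% in HeyA8. With only the 4 mock and siNT1 libraries of HeyA8 fitted, 4.75% of all genes were lower and 6.37% higher. ARSB, CTSD, GM2A and SMPD1 were then called, 1 lower and 3 higher. In the fit of 8 libraries the log2 fold changes of the lysosomal genes in HeyA8 ran from -0.49 to 1.21. The largest values in PC3 were those of TFEB (log2 fold change -0.47, SE 0.25, adjusted p = 0.642), ARSB (0.46, SE 0.21, adjusted p = 0.576), CTSK (-0.44, SE 0.30, adjusted p = 0.717) and LAMP1 (0.43, SE 0.15, adjusted p = 0.429). Between 48 h and 24 h, none passed in PC3 (0.0264% of genes lower and 0% higher, with 0 and 5 of the lysosomal genes at an unadjusted p under 0.05) or in HeyA8 (0% in each direction, with 2 and 1). TFEB and CTSK, the bone-matrix cathepsin, had the largest time differences in PC3 (0.86, SE 0.17, and 0.90, SE 0.21, both adjusted p = 0.276). DESeq2 called these 2 lysosomal genes higher there, against 0.647% of all genes higher and 0.799% lower. In HeyA8 it called none, against 0.202% and 0.238%. Over only the mock and siNT1 libraries of HeyA8, 6.26% of all genes were lower and 5% higher at 48 h, with 4 lysosomal genes lower and 1 higher (GAA, GM2A, IDUA, NPC1 and TPP1).

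With siGGGGGC in PC3, 2 of the 38 lysosomal genes rose and none fell by edgeR, against 3.67% and 6% of all genes (DESeq2 called 7 higher and 1 lower, against 7.64% and 11.3%). LIPA, the acid lipase that frees cholesterol from its esters, was at 4741 and 4137 normalized counts in mock, 4549 and 4931 in siNT1 and 7145 and 10545 in siGGGGGC cells (24 h and 48 h). Both siGGGGGC libraries were above all 4 control libraries (mock and siNT1), and against siNT1 the log2 fold change was 0.88 (SE 0.20, adjusted p = 0.0374). TFEB was at 51.0 and 91.0 in mock, 36.9 and 65.8 in siNT1 and 72.1 and 133.5 in siGGGGGC cells. Its counts were higher at 48 h than at 24 h in each PC3 treatment, its siGGGGGC libraries overlapped the mock libraries, and its log2 fold change against siNT1 was 0.99 (SE 0.25, adjusted p = 0.0474). With mock as the control it was 0.53 (SE 0.24, adjusted p = 0.153), and without the siCAG libraries the adjusted p was 0.0694, neither of them a call, whereas LIPA stayed called in both. Neither call held when either siNT1 library or the 48 h siGGGGGC library was left out, and without the 24 h siGGGGGC library 10 lysosomal genes were called beside 24.4% of all genes, in a fit that assumes the lone siGGGGGC library to vary like the other groups.

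The other values with siGGGGGC in PC3 did not pass the test in edgeR's fit of 8 libraries. Beside LIPA and TFEB, DESeq2 called CTSZ, FUCA1, GALNS, NEU1 and PPT1 higher and CTSL lower (7.64% and 11.3% of all genes). FUCA1 was next on the higher side (0.79, SE 0.23, adjusted p = 0.0668; 749 and 870 in siNT1 and 1174 and 1629 in siGGGGGC cells). On the lower side were CTSL, a cysteine cathepsin (-0.80, SE 0.22, adjusted p = 0.0594), TPP1, the tripeptidyl peptidase lost in a neuronal storage disease (-0.72, SE 0.29, adjusted p = 0.137), and the mannosidase MANBA (-0.27, SE 0.16, adjusted p = 0.284). CTSL was at 1370 and 1318 in mock, 1651 and 1771 in siNT1 and 1227 and 764 in siGGGGGC cells. For CTSL both siGGGGGC libraries were thus below the 4 controls. The TPP1 value was -0.27 at 24 h alone and -1.24 at 48 h alone, from 1 library per treatment and time. CTSD (0.50, SE 0.17, adjusted p = 0.0950), LAMP1 (0.33, SE 0.15, adjusted p = 0.169), PSAP (0.19, SE 0.16) and NPC1 (0.15, SE 0.16) were not called. Over the 38 genes the median log2 fold change was 0.18, against 0.003 over all genes, with 27 of 38 positive. It was 0.11 without the 24 h siNT1 library and at most 0.23 with another siNT1 or siGGGGGC library left out. Both siGGGGGC libraries were above the 4 controls for 14 genes (36.8%, against 22.5% of all genes) and below them for 6 (15.8%, against 22.9%). The prostate markers, led by HOXB13, summed to 3684 and 3190 normalized counts in these siGGGGGC libraries and to 6535 to 16157 in the controls, and their part in the result was not tested.

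Of 146 genes in 6 other lists of lysosomal and autophagy genes tested in PC3 with siGGGGGC, 4 fell (2.74%) and 7 rose (4.79%), against 6% and 3.67% of all genes. With either siNT1 library left out no gene of the whole table was called, so none of these calls held. Of 16 further proton pump subunits, ATP6V0C, the proteolipid ring subunit, fell (-2.01, SE 0.34, adjusted p = 0.0198) and ATP6V0B rose (0.85, SE 0.15). Among 25 genes of the TFEB family and its regulators, the scaffold subunit LAMTOR1 (-1.26, SE 0.24) and the transcription factor MITF (-1.11, SE 0.18) fell and LAMTOR5 (0.69, SE 0.16) rose. Among 25 autophagy genes, GABARAPL1 (1.59, SE 0.29) and GABARAPL2 (0.72, SE 0.18), ubiquitin-like proteins of the autophagosome, rose and the kinase ULK1 fell (-1.01, SE 0.14). The chloride transporter CLCN6 (0.83, SE 0.19) rose among 25 other membrane proteins, GGA2 (0.87, SE 0.18) and VPS11 (0.58, SE 0.15) rose among 29 sorting genes, and none of 26 other hydrolases passed the test. In HeyA8 edgeR's fit of 8 libraries called none of these genes. There ATP6V0C was at 3126 and 2437 in siNT1 and 629 and 451 in siGGGGGC cells. LAMTOR1 was at 2351 and 2254 against 1232 and 1022, and ULK1 at 888 and 695 against 413 and 618. MITF was at 90.8 and 109 against 69.9 and 94.2. Of these 4 genes, ATP6V0C holds 3 GCCCCC in its 3′ UTR, LAMTOR1 and ULK1 2 each and MITF 0. CLCN6 holds 2 and the other genes called higher 0.

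With siGGGGGC in HeyA8, no gene of the whole table passed the test (0% lower and 0% higher, with 851 and 501 of all genes at an unadjusted p under 0.05), and so none of the lysosomal genes did. DESeq2 called 263 genes lower and 55 higher, and edgeR without the siCAG libraries 350 and 131, none of them among the lysosomal genes. With only the 4 siNT1 and siGGGGGC libraries edgeR called 727 genes lower and 381 higher, 1 of them lysosomal. The lysosomal genes had a median log2 fold change of 0.04 (-0.05 to 0.11 with 1 siRNA library left out in turn), with 22 of 38 positive. With mock as the control the median was 0.17. The largest values were those of IDUA, which cuts iduronic acid from glycosaminoglycans (-1.21, SE 0.54, adjusted p = 0.530), CTSL (-0.88, SE 0.30, adjusted p = 0.441) and CTSH (-0.73, SE 0.94) on the lower side, and of CTSK (0.65, SE 0.31), FUCA1 (0.63, SE 0.46) and the sulfatase GALNS (0.43, SE 0.27) on the higher side. CTSL was at 3096 and 2859 in mock, 3131 and 2728 in siNT1 and 2299 and 1072 in siGGGGGC cells, again below all 4 controls, and in the fit of the 4 siNT1 and siGGGGGC libraries alone it was the 1 lysosomal gene called, beside 5.24% of all genes called lower. IDUA was at 51.1 and 33.6 in mock and 108 and 38.0 in siNT1 against 41.7 and 19.8, and overlapped the controls. TFEB (-0.39, SE 0.55), CTSD (0.15, SE 0.22), LAMP1 (0.00, SE 0.26), NPC1 (0.16, SE 0.22) and PSAP (0.16, SE 0.20) were not called. Both siGGGGGC libraries were below the controls for 3 genes (7.89%, against 17% of all genes) and above them for 3 (7.89%, against 16%).

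None of the 13 lysosomal genes with a GCCCCC seed match tested in each line (12 of them in both, with CTSF in PC3 only and HEXA in HeyA8 only) was called with siGGGGGC in either line in edgeR's fit of 8 libraries against siNT1. Under the alternatives, DESeq2 called CTSL lower and CTSZ higher in PC3, edgeR called CTSL lower in PC3 with no filter, CTSZ and NPC2 higher in PC3 with mock as the control, and CTSL, CTSZ, GM2A and TPP1 in PC3 without the 24 h siGGGGGC library, and the fit of 4 libraries called CTSL lower in HeyA8. CTSZ, NPC2, HEXA, ATP6V0D1 and CTSH hold the match only in the transcript with the longest 3′ UTR. Over the 13 genes tested in each line, these included, the median log2 fold change was 0.11 in PC3 and -0.07 in HeyA8. Of the 13, 5 were negative in PC3 and 8 in HeyA8. The 25 genes without a match had medians of 0.20 and 0.10. Over all genes in PC3, 10.3% of those with a match and 4.32% of those without fell. In the test of the siGGGGGC response between the lines, none of the 37 lysosomal genes tested in both passed. Of all genes, 0% were lower and 0% higher in PC3 than in HeyA8. An unadjusted p under 0.05 was reached by 700 and 354, 0 and 2 of them lysosomal. DESeq2 called none of the 37 either, beside 0.0755% of all genes lower and 0.0441% higher.

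With siCAG in PC3, 4 of the 38 lysosomal genes fell and none rose by edgeR, against 1.16% and 0.0396% of all genes. DESeq2 called the same 4 lower and NEU1 higher (3.03% and 0.753% of all genes), edgeR without the siGGGGGC libraries also called NEU1 and GM2A higher (2% and 0.277%), and the fit of the 4 libraries compared called 6 lower and 6 higher (11% and 4.97%). ARSB, which carries the CTG run shown above, was at 789 and 689 normalized counts in mock, 913 and 1110 in siNT1 and 94.8 and 66.3 in siCAG cells. The siCAG libraries were far below every other PC3 library, with a log2 fold change of -3.66 (SE 0.24, adjusted p = 0.000889). SMPD1, the acid sphingomyelinase, was at 954 and 895 in mock, 894 and 1004 in siNT1 and 202 and 196 in siCAG cells (-2.25, SE 0.17, adjusted p = 0.00138). FUCA1 was at 873 and 781 in mock, 749 and 870 in siNT1 and 362 and 269 in siCAG cells (-1.36, SE 0.24, adjusted p = 0.0444). LAMP1 was at 4797 and 4798 in mock, 6234 and 6679 in siNT1 and 3409 and 2867 in siCAG cells (-1.04, SE 0.15, adjusted p = 0.0192). For all 4 genes the siCAG libraries lay below the 4 controls at both times. Leaving out either siNT1 or either siCAG library kept the calls of ARSB and SMPD1 and ended those of FUCA1 and LAMP1. LAMP1 was also not called when mock cells served as the control, nor FUCA1 with a minimum of 1 CPM in 2 libraries.

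In edgeR's fit of 8 libraries against siNT1, no other gene of the set was called in PC3 with siCAG. The largest values on the higher side were those of TFEB (0.86, SE 0.25, adjusted p = 0.195; 65.8 and 121.8, overlapping the mock libraries), GM2A (0.82, SE 0.25, adjusted p = 0.214) and NEU1, the lysosomal sialidase (0.79, SE 0.17, adjusted p = 0.0898). CTSD (0.34, SE 0.17), NPC1 (0.11, SE 0.16) and PSAP (0.09, SE 0.16) were not called. The median over the 38 genes was 0.14, against -0.006 over all genes, and 26 were positive. Without the 24 h siCAG library it was 0.30 and without the 48 h siCAG library -0.05, so its sign rested on 1 library. Both siCAG libraries were below the controls for 8 genes (21.1%, against 14.9%) and above them for 9 (23.7%, against 13.6%).

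**Figure D2:**
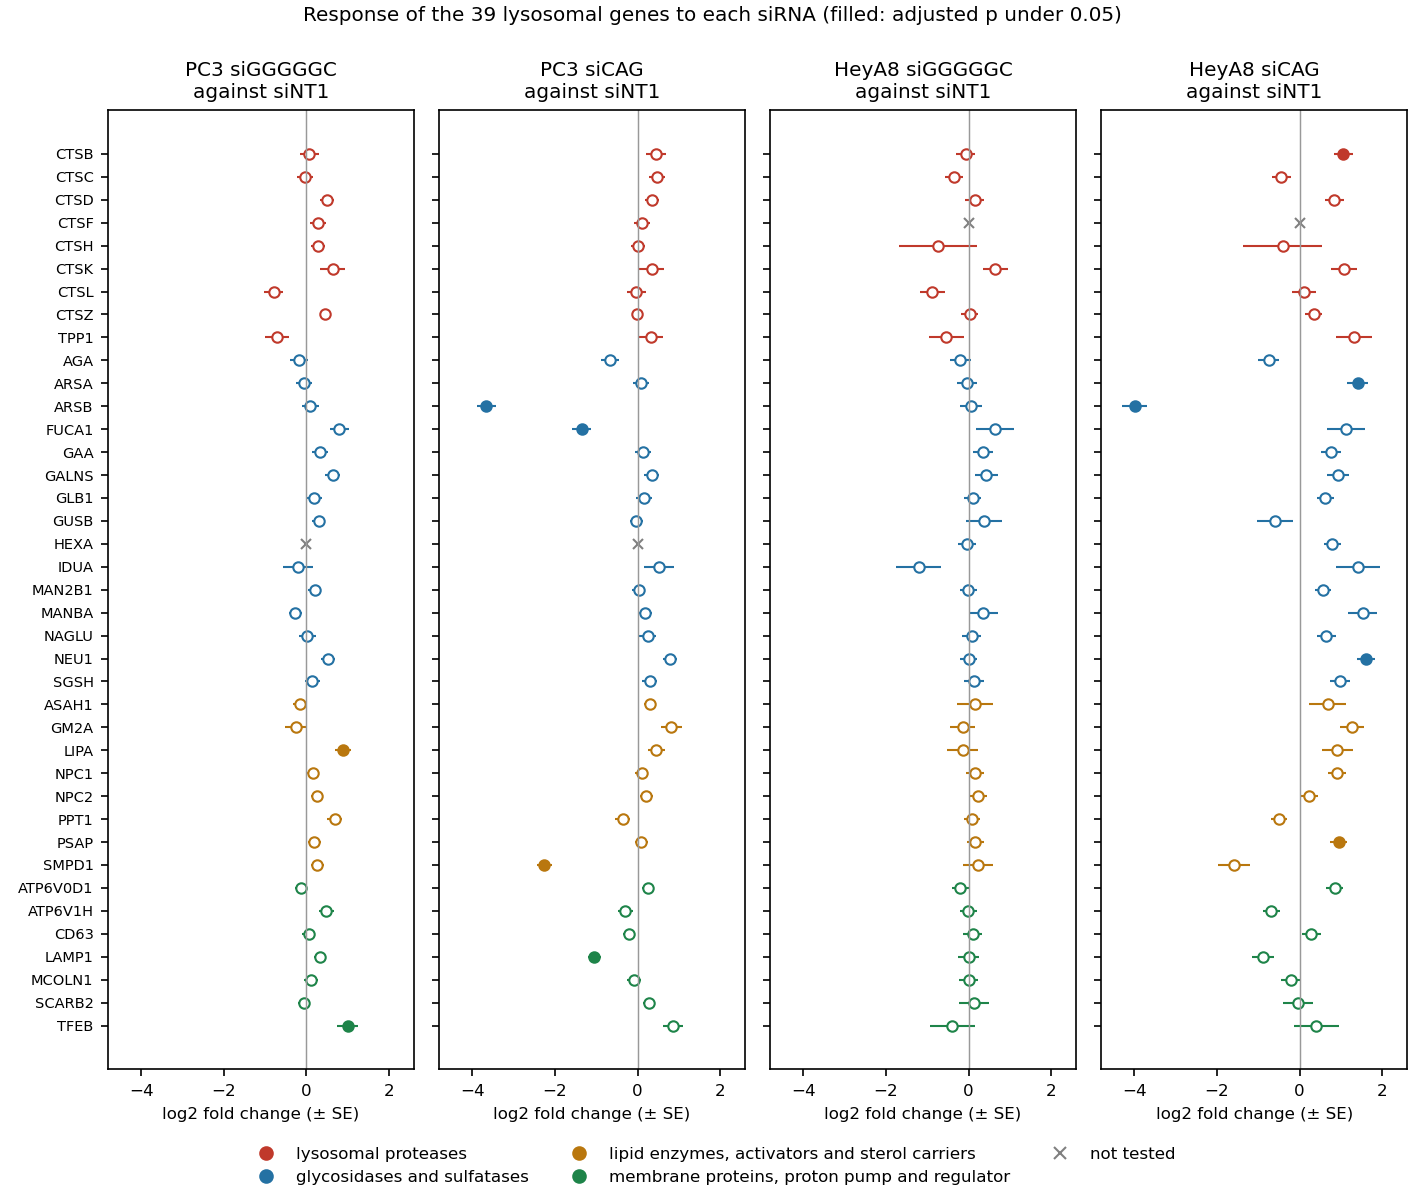
Log2 fold change against siNT1 (x axis, bars show the SE) of each lysosomal gene in the 4 siRNA comparisons; colours give the classes, filled points have an adjusted p under 0.05 and a cross marks the gene not tested in that line. ARSB is far left in both siCAG panels, SMPD1, FUCA1 and LAMP1 are the other filled points in PC3 siCAG, and most points of the HeyA8 siCAG panel lie to the right of 0.

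With siCAG in HeyA8, ARSB again fell, and 4 lysosomal genes rose: NEU1, ARSA, CTSB and PSAP. The background was 4.93% of all genes lower and 2.88% higher, beside 1 of 38 (2.63%) and 4 of 38 (10.5%). ARSB was at 1059 and 831 in mock, 1190 and 1273 in siNT1 and 88.4 and 66.5 in siCAG cells, with a log2 fold change of -3.99 (SE 0.30, adjusted p = 0.00263) and no overlap with any other library of the line. NEU1 was at 980 and 869 in mock, 833 and 747 in siNT1 and 2710 and 2128 in siCAG cells (1.61, SE 0.21, adjusted p = 0.0125). ARSA, the sulfatase that acts on sulfatide, was at 253 and 227 in mock, 253 and 194 in siNT1 and 576 and 604 in siCAG cells (1.41, SE 0.25, adjusted p = 0.0283). In both genes the siCAG libraries were more than 2-fold above every control.

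The protease and the lipid-class gene with the highest levels per kilobase in mock-treated HeyA8 cells, CTSB and PSAP, rose as well. CTSB was at 19937 and 19892 in mock, 21483 and 18260 in siNT1 and 35032 and 47628 in siCAG cells (1.06, SE 0.23, adjusted p = 0.0434). PSAP was at 14236 and 13523 in mock, 15525 and 14565 in siNT1 and 25978 and 32600 in siCAG cells (0.95, SE 0.21, adjusted p = 0.0425). With either siNT1 library left out, and in the fit of the 4 libraries compared, ARSB alone of the set stayed called, and without the siGGGGGC libraries ARSB and NEU1 did. With the 24 h or the 48 h siCAG library left out, 25 and 21 lysosomal genes were called beside 32.5% and 33.9% of all genes, in fits in which the lone siCAG library is assumed to vary like the other groups.

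**Figure D3:**
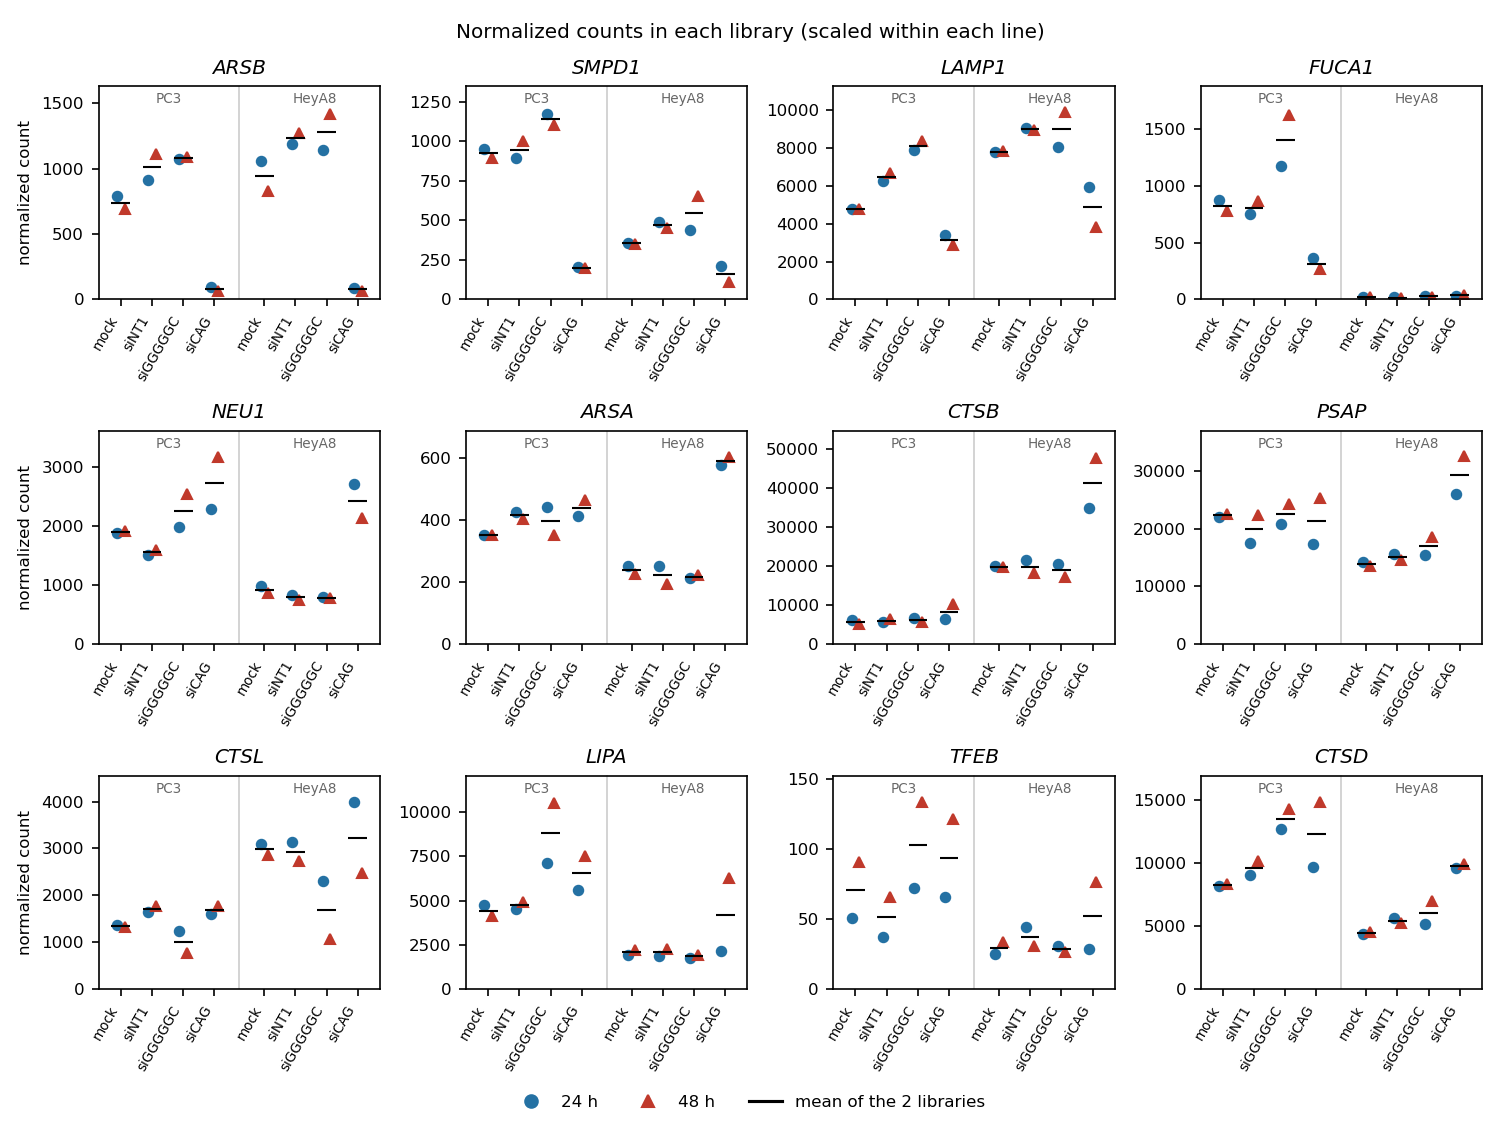
Normalized count (y axis, from 0, scaled within each line) of 12 lysosomal genes in the 16 libraries, by line and treatment; circles are 24 h, triangles 48 h and lines the mean of the 2 libraries. ARSB lies below 100 in the siCAG libraries of both lines, and among the HeyA8 libraries NEU1, ARSA, CTSB and PSAP are highest with siCAG.

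Further genes of the set were not called in HeyA8 in edgeR's fit of 8 libraries. DESeq2 called 4 of the set lower and 15 higher (10.9% and 8.3% of all genes), SMPD1, LAMP1, MANBA, GM2A, NPC1, CTSD and TPP1 among them. With a minimum of 1 CPM in 2 libraries edgeR added ATP6V0D1, GM2A, MANBA, NPC1 and SGSH as higher (3.91% of all genes). With no filter it added GM2A and MANBA as higher and SMPD1 as lower (2.25% and 4.2%). Without the time term it added ATP6V0D1, GM2A and SGSH as higher and SMPD1 as lower (3.36% and 5.2%). With mock as the control it added CTSD, GAA, GALNS, NPC1 and SGSH as higher and AGA as lower (3.44% and 5.53%). MANBA (1.53, SE 0.36, adjusted p = 0.05004), GM2A (1.27, SE 0.30, adjusted p = 0.0512), NPC1 (0.92, SE 0.22, adjusted p = 0.0526) and CTSD (0.84, SE 0.23, adjusted p = 0.0667) were on the higher side. IDUA (1.41, SE 0.53, adjusted p = 0.135; 137 and 205 counts) and TPP1 (1.31, SE 0.44, adjusted p = 0.109; 6568 and 11557) were on this side too. On the lower side SMPD1, at 489 and 453 in siNT1 and 209 and 107 in siCAG cells (-1.59, SE 0.38, adjusted p = 0.0518), LAMP1, at 9063 and 8947 against 5943 and 3844 (-0.89, SE 0.27, adjusted p = 0.0845), and AGA, which cleaves the sugar from asparagine (-0.75, SE 0.25, adjusted p = 0.110), were not called, although both siCAG libraries of all 3 lay below the controls. TFEB was at 28.5 and 76.5 in siCAG cells against 44.4 and 30.4 in siNT1 (0.41, SE 0.54) and changed side between the times.

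Taken gene by gene, both siCAG libraries were above all 4 controls for 23 of the 38 genes (60.5%, against 23.7% of all genes) and below them for 7 (18.4%, against 23.5%). The median log2 fold change was 0.66, against -0.01 over all genes, with 27 of 38 positive, and 21 genes had an unadjusted p under 0.05 on the higher side and 6 on the lower (against 14.5% and 15.1% of all genes). By class the median was 0.59 for 8 proteases, 0.79 for 15 glycan enzymes, 0.80 for 8 lipid enzymes and carriers, and -0.04 for 7 membrane and pump genes. The summed normalized counts of the 39 genes were 115298 and 113477 in mock, 123399 and 119184 in siNT1, 119540 and 125041 in siGGGGGC and 162146 and 187664 in siCAG cells. As a share of all counts this was 0.532% and 0.622% with siCAG and 0.365% to 0.412% in the other HeyA8 libraries. The protease sum alone was 70937 and 85530 with siCAG against 39708 to 48840 elsewhere, and CTSB made up the largest part. In PC3 the sums were 128867 and 160418 with siCAG, which overlapped those of mock (136051 and 128404) and siNT1 (126361 and 142285). With siGGGGGC in PC3 they were 152973 and 157058, above all 4 of these controls. Macrophage markers did not move with the HeyA8 sums (12.8 and 6.95 in the HeyA8 siCAG libraries, 11.9 to 14.5 in the controls). The fibroblast list, nearly all of it COL1A1, summed to 561 and 1258 with siCAG in HeyA8 against 125 to 299 in the controls. Its part in the result was not tested. In bulk RNA, more RNA of a kind per cell and more cells rich in it cannot be told apart.

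The median of the lysosomal genes at each time showed when the shift was present. With siCAG in HeyA8 it was 0.54 at 24 h (26 of 38 positive) and 0.84 at 48 h (27 of 38), from 1 library per treatment and time and with no test. With siCAG in PC3 it was 0.06 and 0.20, with siGGGGGC in PC3 0.27 and 0.06, and with siGGGGGC in HeyA8 -0.06 and 0.12. The median of all genes lay between -0.02 and 0.03 in each. In HeyA8, CTSH (33.4 and 4.0 counts) and CTSL were above siNT1 at 24 h and below it at 48 h, and ASAH1, SCARB2 and TFEB were below it and then above it.

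**Figure D4:**
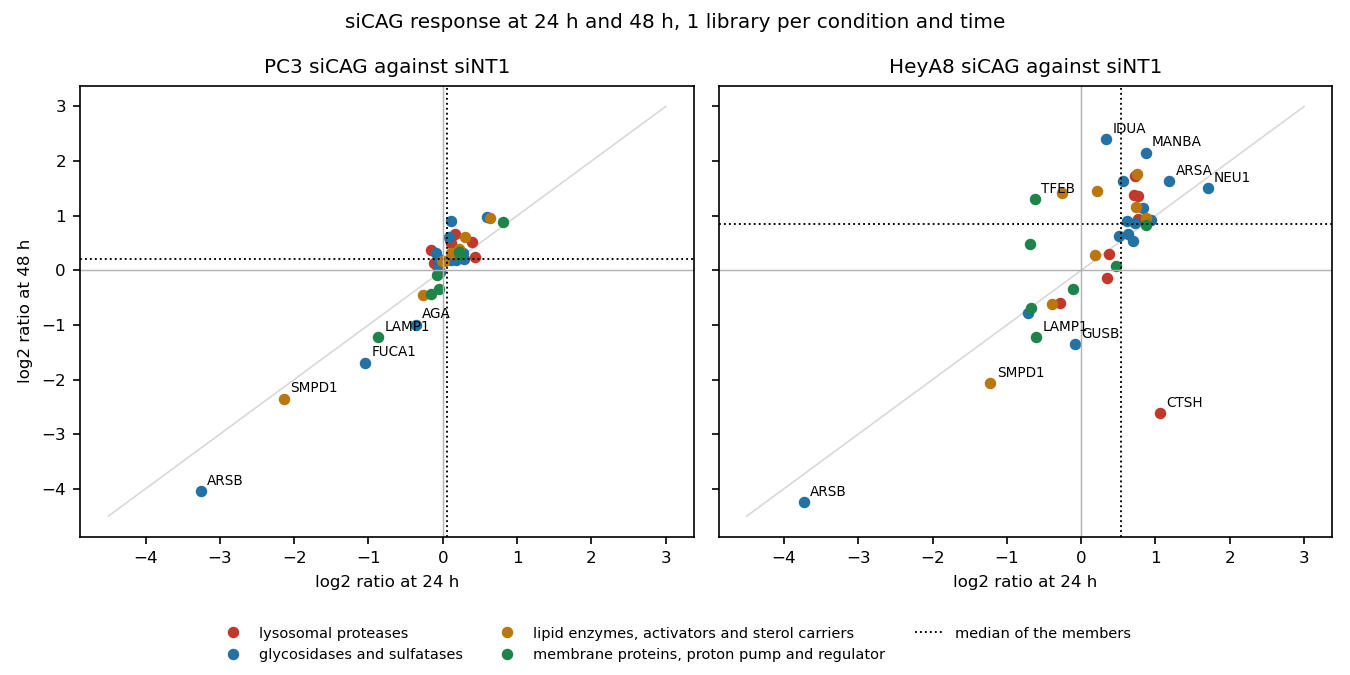
Log2 ratio of siCAG to siNT1 at 24 h (x axis) and 48 h (y axis) for each tested lysosomal gene in PC3 (left) and HeyA8 (right), 1 library per treatment and time; colours give the classes, dotted lines the median of the genes and the grey diagonal equal ratios. In PC3 the 4 genes called, ARSB, SMPD1, FUCA1 and LAMP1, lie below 0 and TFEB, GM2A and NEU1 above 0 at both times, whereas most HeyA8 genes lie above 0 at both times.

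A direct test compared the siCAG responses of the lines. FUCA1 was the 1 of 37 genes that passed by edgeR. Its log2 difference between the PC3 and HeyA8 responses was -2.59 (SE 0.43, adjusted p = 0.0286). The background was 0.252% of genes lower in PC3 and 0.384% higher. DESeq2 called 6 lower in PC3 (ARSA, FUCA1, MANBA, NEU1, NPC1 and PSAP) and 0 higher, against 2.09% and 2.13% of all genes. FUCA1 fell in PC3, while in HeyA8, at 20.3 and 13 counts in siNT1 and 30.4 and 42.7 in siCAG cells, it had a log2 fold change of 1.13 (SE 0.45, adjusted p = 0.154). The call was lost without any one of the siNT1 libraries of either line or the siCAG libraries of PC3. MANBA (-1.45, SE 0.38, adjusted p = 0.120), ARSA (-1.43, SE 0.31, adjusted p = 0.0731), TPP1 (-1.08, SE 0.56) and PSAP (-0.97, SE 0.26, adjusted p = 0.136) were next, with the HeyA8 response the more positive, and CTSC (0.80, SE 0.32, adjusted p = 0.282) was largest in the other direction. The ARSB responses differed by 0.22 (SE 0.37, adjusted p = 0.862). The median difference was -0.58 over the 37 genes, 28 of them negative, against -0.13 over all genes. The higher lysosomal levels with siCAG in HeyA8 were in most single genes not shown to differ from PC3. Of the genes called higher in HeyA8, DESeq2 called the difference for NEU1, ARSA and PSAP but not for CTSB, and edgeR's fit of all 16 libraries for none.

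**Figure D5:**
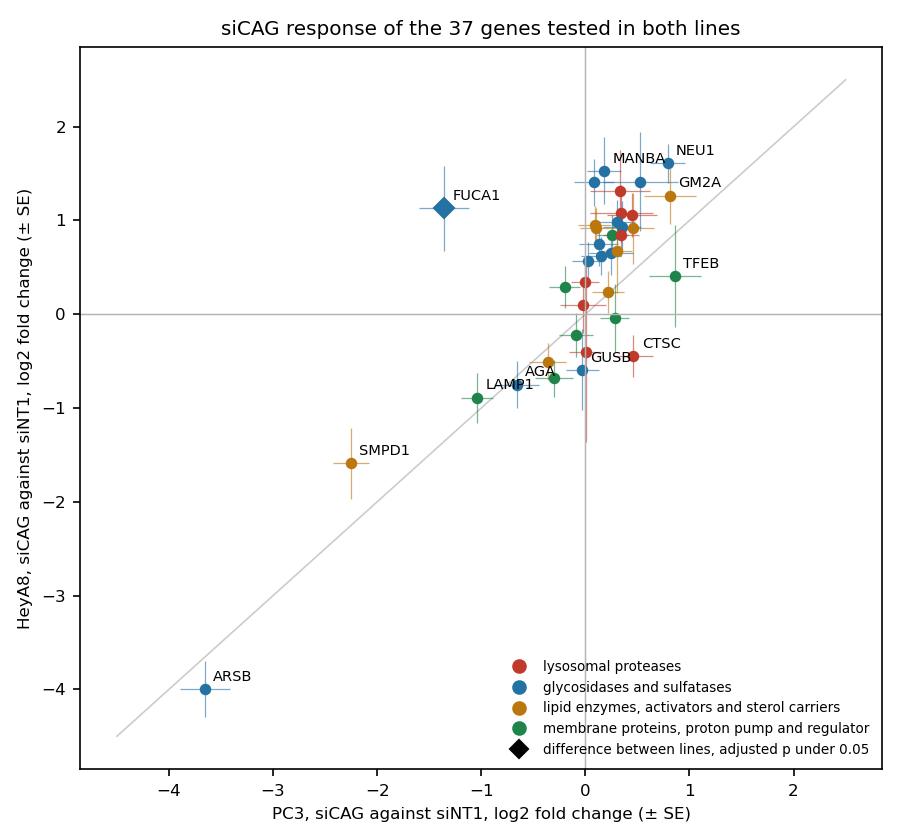
Log2 fold change of siCAG against siNT1 in PC3 (x axis) and HeyA8 (y axis) of the 37 lysosomal genes tested in both lines, with bars at the SE; colours give the classes, the grey line marks equal responses and the diamond an adjusted p under 0.05 for the difference. ARSB lies near the line at the lower left, FUCA1 far above it, and most genes above the line.

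CTG runs were also read against the siCAG response of all genes. Of all tested genes with a run of 5 or more, 47 of 114 (41.2%) fell with siCAG in PC3 and 48 of 102 (47.1%) in HeyA8. Of the lysosomal genes whose longest run was 3, edgeR called SMPD1, FUCA1 and LAMP1 lower in PC3 and NEU1 and ARSA higher in HeyA8. SMPD1 and LAMP1 were not called in HeyA8 in edgeR's fit of 8 libraries (values above). DESeq2 called both lower there (-1.60 and -0.90, adjusted p = 0.00162 and 0.0247). With no filter and without the time term edgeR called SMPD1 lower there as well (4.2% and 5.2% of all genes lower). Among all genes whose longest run was 3, 1.66% fell in PC3 and 3.60% in HeyA8, while 0.0571% and 3.29% rose.

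Other lists of lysosomal and related genes were read beside the set, with no test of the difference. Of 143 genes in the 6 lists tested in HeyA8 with siCAG, 4 fell (2.8%) and 4 rose (2.8%), against 4.93% and 2.88% of all genes. With either siNT1 library left out no gene of the whole table was called higher. With siCAG in HeyA8 the median log2 fold change was 0.24 for 26 other membrane proteins, -0.01 for 16 other pump subunits, 0.04 for 29 sorting genes, 0.25 for 25 TFEB family genes and regulators and 0.32 for 23 autophagy genes. Of 24 other hydrolases tested there, 3 fell and none rose, with a median log2 fold change of -0.06. CTSA, which also holds NEU1 in an active complex, was at 5234 and 5389 in siNT1 and 762 and 683 in siCAG cells (-2.88, SE 0.22, adjusted p = 0.00263). The folate hydrolase GGH (-1.92, SE 0.44) and the phospholipase PLA2G15 (-1.21, SE 0.25) were the others. TPCN1 fell among 26 other membrane proteins (-1.59, SE 0.27), ATP6V0A1 rose among 16 other pump subunits (1.06, SE 0.20), and none of 29 sorting genes or of 25 TFEB family genes and regulators passed. Of 23 autophagy genes 3 rose and none fell, namely the cargo receptors SQSTM1 (2.05, SE 0.27, adjusted p = 0.0122) and NBR1 (1.14, SE 0.24) and the early autophagosome protein WIPI1 (1.55, SE 0.35). SQSTM1 was at 18593 and 17425 in siNT1 and 62034 and 90675 in siCAG cells.

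In PC3 with siCAG, CTSA (-3.05, SE 0.32, adjusted p = 0.00453), NAAA (-1.68, SE 0.21) and PPT2, a thioesterase (-1.44, SE 0.22), fell among 26 other hydrolases and TPCN1 among 25 other membrane proteins (-1.29, SE 0.18). CTSA was at 7919 and 9690 in siNT1 and 1048 and 1091 in siCAG cells. Over the 6 lists this was 4 of 146 genes lower (2.74%, against 1.16% of all genes) and 0 higher (against 0.0396%), with no call in the pump, sorting, TFEB and autophagy lists. Of the lysosomal genes whose CTG runs are shown above, ARSB, CTSA and TPCN1 were called lower in both lines and NAAA in PC3 only (-1.30 in HeyA8, adjusted p = 0.0591 by edgeR). ATG4B and ATP6V0B, the other genes of these lists with a run of 4 or more triplets (5 and 4, in the 3′ UTR), were not called with siCAG in either line.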

How the data were processed

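Per the labels, total RNA (miRNeasy, DNase digested) was made into libraries with Illumina TruSEQ TotalRNA kits. The authors aligned reads with STAR to hg38 and deposited raw HTSeq read counts per gene symbol. The study's methods name HTSeq 0.6.1 and Ensembl 78 annotation, and Tophat beside STAR as an aligner. The STAR version and the strand setting are not given in the sources used here.

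The 39 genes, the other gene lists and the tests were chosen with earlier results of these data known. Counts were tested with edgeR 4.0.16 (R 4.3.3) by the quasi-likelihood test on TMM-scaled libraries after filterByExpr, per line with siRNA and time as terms over 8 libraries, and over all 16 libraries (line by siRNA, time within line) for differences between lines. P-values were adjusted by Benjamini-Hochberg over all genes tested and called under 0.05. Normalized counts are counts scaled by TMM library size, within a line or, for markers and levels per kilobase (MANE transcript length), over both. DESeq2 1.42.0, other filters, controls and sets of libraries were tried as alternatives, and the code was tested on simulated data. GCCCCC and CTG runs were searched in GENCODE transcripts (hg38), per gene the one with the longest 3′ UTR.

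Values are given for CTSD, LAMP1, NPC1, PSAP and TFEB in the siRNA comparisons against siNT1 and between mock lines. They are also given for called genes (up to 12 in each direction) and for up to 4 called genes of each other list. Where fewer than 3 passed in a direction with siGGGGGC or siCAG against siNT1, the 3 largest are given. Between mock lines the 5 largest differences in each direction are given. Other genes named were chosen after their values were seen. GUSB has pseudogene copies, and how its reads were shared is not known. The NEU1 entry of the count table mixes coordinates of an alternate sequence of chromosome 6 and of chromosome 6 itself. How NEU1 reads were shared between them is not known either.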

Additional observations from a re-analysis of the deposited data

Results flagged for a closer look

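FUCA1 drew attention because its responses to siCAG in the 2 lines differed by the test of the difference itself. The log2 difference between the PC3 and HeyA8 responses was -2.59 (SE 0.43, adjusted p = 0.0286 by edgeR's quasi-likelihood test over 15887 genes), with PC3 at 749 and 870 normalized counts in siNT1 and 362 and 269 in siCAG cells, and HeyA8 at 20.3 and 13 against 30.4 and 42.7. The HeyA8 level was low, and the part of that low level in the difference was not tested.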

How the results depend on the processing

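No result changed direction among those called. ARSB with siCAG was called lower in both lines, and SMPD1 in PC3, under every alternative run. Counts of lysosomal genes called are given with the reported value in parentheses, and each is followed by the share of all genes called under that setting. With DESeq2 they were 8 (2), 18.9%, for siGGGGGC in PC3, 19 (5), 19.2%, for siCAG in HeyA8, 2 (0), 1.45%, for time in PC3 and 6 (1), 4.22%, for the siCAG difference between lines. With no filter they were 4 (2), 8.96%, for siGGGGGC in PC3 and 8 (5), 6.45%, for siCAG in HeyA8, and with a minimum of 1 CPM in 2 libraries 10, 9.31%, for the latter. Without the time term they were 0, 4.13%, for siGGGGGC in PC3 and 9, 8.56%, for siCAG in HeyA8. Against a 2-fold threshold (glmTreat) they were 0, 0%, for siGGGGGC and 2 (4), 0.304%, for siCAG in PC3, 1, 0.966%, for siCAG in HeyA8, 0, 0.0378%, for the siCAG difference and 11 (24), 23.3%, for mock lines. With only the 4 libraries compared they were 0, 0.965%, for siGGGGGC and 12, 16%, for siCAG in PC3, 1 (0), 7.99%, for siGGGGGC and 1, 4.35%, for siCAG in HeyA8, and 4 (0), 11.1%, for siNT1 against mock in HeyA8. With mock as the control they were 7, 21.1%, for siGGGGGC in PC3 and 11, 8.97%, for siCAG in HeyA8. Without the siCAG libraries siGGGGGC in PC3 gave 1, 8.02%, without the siGGGGGC libraries siCAG in HeyA8 gave 2, 1.92%, and time over only the mock and siNT1 libraries of HeyA8 gave 5 (0), 11.3%. Leaving out 1 library gave 0 to 10 (0% to 24.4%) for siGGGGGC and 2 to 2 (0.145% to 0.74%) for siCAG in PC3, 1 to 25 (0.274% to 33.9%) for siCAG in HeyA8, 0 to 8 (0.00629% to 9.68%) for the siCAG difference and 15 to 21 (27.7% to 36.6%) for mock lines. The cause of these moves was not tested. The time term already sets the 24 h and 48 h libraries of the treatments side by side, and the fit without it is given above. With 2 libraries per treatment, a gene that missed the threshold is not shown to be unchanged.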

Other observations

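The absence of HEXA from PC3 extended to its neighbours on chromosome 15 (hg38), which were looked at after its counts were seen. PARP6 (72241181 to 72271287), CELF6, HEXA (72343437 to 72376179) and HEXA-AS1 were at 0 in all 8 PC3 libraries, apart from the 1 count of HEXA, whereas HeyA8 libraries held 499 to 978 normalized counts of PARP6, 1.08 to 19.0 of CELF6 and 0 to 8.96 of HEXA-AS1. TMEM202, next in order, was at 0 in both lines. The flanking genes PKM (52014 to 125181 in PC3) and ARIH1 (1117 to 1973) were expressed in both. The cause of the zero counts in PC3 was not tested.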
